A study of Caenorhabditis elegans with 12 samples.

Results

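The microRNAs cel-miR-85-3p, cel-miR-784-5p, cel-miR-785 and cel-miR-1821 (written below without the species prefix) were described in young and ageing Caenorhabditis elegans that carry or lack the microRNA gene mir-71. They are 4 of the 213 mature microRNAs in the deposited table, and they are all of its rows for those 4 genes. They were selected on their normalised counts at day 5 of adulthood, which stood higher in mir-71 mutants than in wild-type worms, so their levels at day 5 are given as a description without a test. The groups were mir-71(n4115) mutants (strain MT12993) at day 5, wild-type N2 worms at day 5, the same mutants at day 0 and N2 worms at day 0, with 3 libraries in each, called biological replicates by the submitters. Cultures of all groups were held at 20 °C, and as young adults the worms went onto plates with 0.1 mg/mL 5-fluorodeoxyuridine, a compound that blocks DNA synthesis and so the development of progeny. The mutants are 1 strain with 1 deletion allele, so the loss of mir-71 and other differences of that strain cannot be told apart. The libraries came from whole bodies, in which fewer cells of a type and less RNA per cell cannot be told apart.

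A microRNA is cut from a hairpin precursor, and 1 of the 2 arms of the hairpin usually stays in an Argonaute protein and guides it to messenger RNAs. The seed, bases 2 to 8 of the mature strand, chooses most of the targets, so microRNAs with the same seed can act on the same messages. In C. elegans many microRNAs can be lost singly with little visible effect, whereas mir-71 is needed for a normal adult lifespan. The design lets the strains be compared at either age and the ages within either strain.

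Across the 12 libraries the deposited signal summed to between 1276414 normalised counts in mutant replicate 2 at day 0 and 5021422 in mutant replicate 1 at day 5, from 917170 and 4070663 inferred reads. The library medians ran from 289.9 normalised counts in mutant replicate 1 down to 77.1 in N2 replicate 2, both at day 5. miR-71-5p, the guide strand of the deleted gene, averaged 153 ± 44.3 normalised counts in mutants and 114533 ± 26448 in N2 at day 5. At day 0 it had 52.5 to 139 in mutants and 123352 to 173431 in N2. Here and below, ± with a mean is the SD of 3 libraries, and ± with a log2 difference is limma's standard error. miR-71-3p was at 0 in all 6 mutant libraries.

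The 4 genes lie apart from each other on 3 chromosomes. mir-85 is annotated on chromosome II at 8393553 to 8393658 of WBcel235, on the plus strand, and overlaps an intron of F49E12.8, a protein-coding gene of the opposite strand, and miR-85-3p is its 24-base product at 8393617 to 8393640. mir-784 lies on chromosome X at 8074922 to 8075009, on the minus strand and between protein-coding genes, and miR-784-5p is its 22-base product at 8074975 to 8074996. mir-785 lies on the same chromosome at 3004668 to 3004761, on the plus strand and 865 bases from Y41G9A.6. mir-1821 lies on chromosome V at 3042530 to 3042633, on the minus strand and 2504 bases from F59D6.1. For mir-785 and mir-1821 the annotation gives 2 mature products each, and the rows named miR-785 and miR-1821 do not say which arm they hold. Another microRNA gene stands close by on the same strand in 2 of the 4 cases, with mir-359 268 bases from mir-785 and mir-792 349 bases from mir-1821. Both of these neighbours were measured, while miR-5553, from the gene 2546 bases from mir-784, is not among the rows analysed here.

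At day 5 all 4 microRNAs stood higher in every mutant library than in any N2 library, by ratios of group means between 4.95 and 6.75. They were chosen on this contrast, and every mutant library was above every N2 library in 41.2% of the 211 microRNAs other than mir-71. miR-85-3p was by far the most abundant of them, and it had 48131, 18161 and 22888 normalised counts in mutant replicates 1, 2 and 3, against 3362, 5372 and 7143 in N2. The lowest mutant library was 2.54 times the highest N2 library. Its group means were 29727 ± 16113 for mutants and 5293 ± 1892 for N2 (n = 3 each), and the difference on the log2(value + 1) scale was 2.43 ± 0.50.

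miR-785 was next in abundance, with 2203, 715 and 1259.7 normalised counts in the mutant replicates, against 154, 198 and 266 in N2. The mutant values lay far apart from each other, yet the lowest of them was 2.68 times the highest N2 value. Its means were 1393 ± 753 in mutants and 206 ± 56.4 in N2, a log2 difference of 2.64 ± 0.61, which was the largest of the 4.

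The other 2 were scarcer. miR-784-5p had 414, 192 and 283 normalised counts in the mutants, against 30.6, 52.3 and 96.8 in N2 (2.37 ± 0.59). miR-1821 had 279, 108 and 151 in the mutants, against 44.1, 21.9 and 28.5 in N2 (2.41 ± 0.47). In both, mutant replicate 1 was the highest of the 6 libraries and mutant replicate 2 the lowest of the mutants, as it was for miR-85-3p and miR-785. In N2 at day 5 miR-784-5p rested on 25 to 112 inferred reads per library and miR-1821 on 33 to 39, so counting error adds to their spread.

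**Figure D1:**
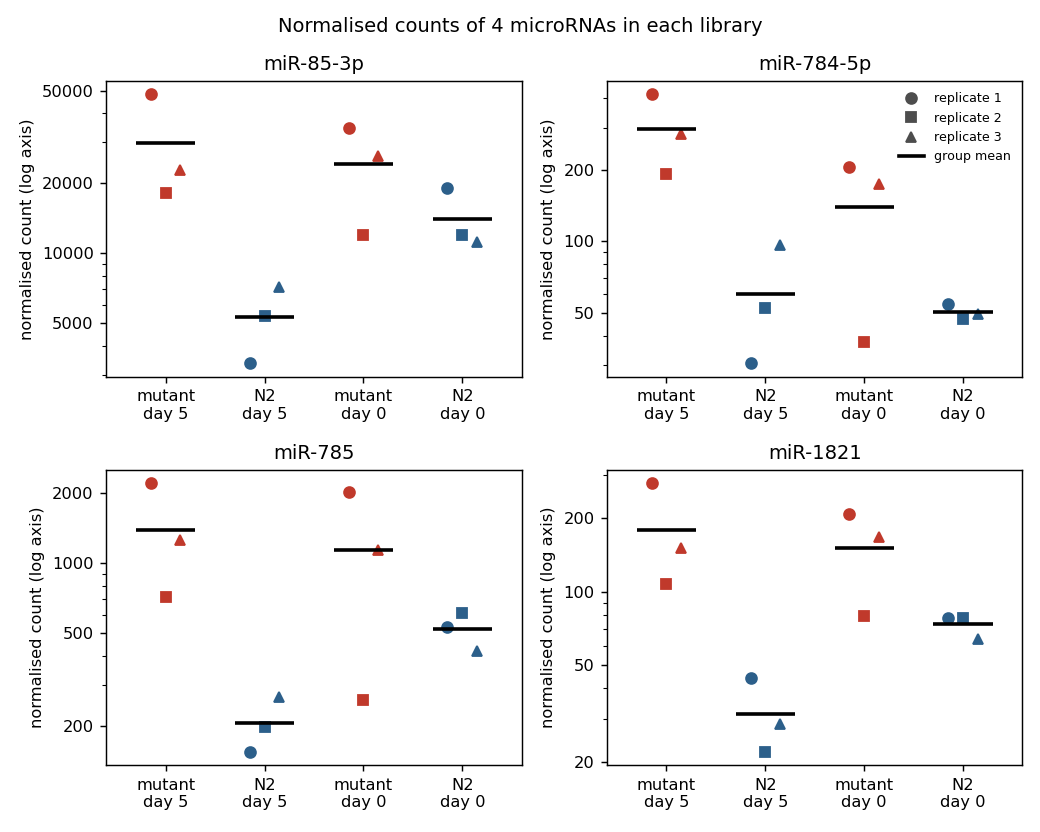
Normalised counts (log axis) of the 4 microRNAs in each of the 12 libraries, with the 3 replicates of a group as symbols, group means as black lines, mutants in red and N2 in blue. At day 5 every mutant library lies above every N2 library in each panel, while at day 0 mutant replicate 2 lies below the N2 libraries for miR-784-5p and miR-785.

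These differences stood in a comparison in which most microRNAs were higher in the mutants. Of the 211 microRNAs other than mir-71, 185 had a positive log2 difference at day 5, and the median was 0.98. limma called 48 of them higher, a share of 22.7%, and 0 lower, and 95 had an unadjusted p under 0.05. With the replicate block it called 95 higher and 1 lower. Ordered by the log2 difference, miR-785 was at place 3, miR-85-3p at 5, miR-1821 at 6 and miR-784-5p at 8. The microRNAs directly around them were miR-239b-5p (3.24 ± 0.81) above miR-785, miR-239a-5p (2.53 ± 0.72) below it, miR-793 (2.403 ± 0.53) between miR-1821 and miR-784-5p, and miR-795-3p (2.34 ± 0.59) below miR-784-5p. Relative to the median of all, the differences were 1.65 for miR-785, 1.44 for miR-85-3p, 1.43 for miR-1821 and 1.39 for miR-784-5p. The number called among the 211 was 1 without mutant replicate 1 at day 5. It was 25 without mutant replicate 3, 6 without N2 replicate 1 and 3 without N2 replicate 2, all at day 5, and 75 without mutant replicate 2 at day 0.

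At day 0, in libraries that played no part in the choice, none of the 4 passed the test. miR-85-3p had 34366, 12006 and 26263 normalised counts in the mutants, against 18999, 11961 and 11177 in N2, a log2 difference of 0.70 ± 0.50 (95% interval −0.36 to 1.75, limma adjusted p = 0.966). miR-785 had 2021, 257 and 1138 in the mutants, against 532, 610.2 and 419.7 in N2 (0.71 ± 0.61, interval −0.60 to 2.01, limma adjusted p = 0.966). Replicate 2 was the odd one in both, with a mutant level inside the range of N2 for miR-85-3p and below it for miR-785, whereas mutant replicates 1 and 3 were above all N2 libraries.

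For the scarcer pair, too, mutant replicate 2 was the lowest of the mutants at day 0. miR-784-5p had 206, 37.6 and 174 normalised counts in the mutants, against 54.6, 46.9 and 49.5 in N2 (1.13 ± 0.59, interval −0.12 to 2.38, limma adjusted p = 0.966). miR-1821 had 208, 79.3 and 167 in the mutants, against 78.1, 78.1 and 63.8 in N2 (0.93 ± 0.47, interval −0.07 to 1.94, limma adjusted p = 0.966). For miR-1821 the lowest mutant library was 1.02 times the highest N2 library, so the groups just failed to overlap, as they did with mutants above N2 in 3.32% of the 211 microRNAs. limma called 0 of 211 microRNAs at day 0, a share of 0.0%, and 5 had an unadjusted p under 0.05, so the 4 missed a threshold that no microRNA passed. The upper ends of the intervals, from 1.75 for miR-85-3p to 2.38 for miR-784-5p, show how large a difference is left possible. The width of the intervals uses a spread estimated from all 12 libraries, those of day 5 included. Whether the day 5 and day 0 differences differ was not tested.

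Mutant replicate 2 at day 0 was also the library with the lowest total signal. Without it the day 0 log2 differences were 1.14 for miR-85-3p, 1.89 for miR-784-5p, 1.56 for miR-785 and 1.34 for miR-1821, with limma adjusted p of 0.232, 0.0833, 0.123 and 0.161, the lowest among the alternatives. Without mutant replicate 1 at day 0 they were 0.38, 0.68, 0.07 and 0.65. The size of the difference in young adults, though not its sign, thus turned on single mutant libraries.

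**Figure D2:**
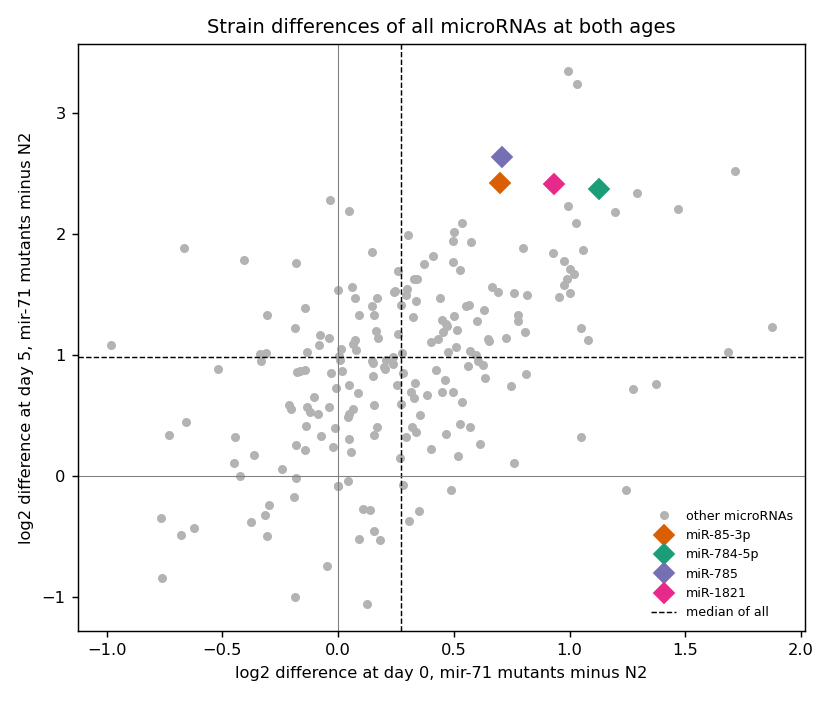
Log2 differences, mir-71 mutants minus N2, at day 0 (horizontal) and day 5 (vertical) for the 211 microRNAs other than mir-71, with the 4 chosen microRNAs as diamonds and the medians of all as dashed lines. The 4 lie between 2.37 and 2.64 at day 5 and between 0.70 and 1.13 at day 0, to the right of and above both medians (0.27 and 0.98).

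Set against the same replicate number in N2, the mutants differed most in replicate 1 at day 5. The ratios of mutant to N2 for replicates 1, 2 and 3 were 14.3, 3.38 and 3.20 for miR-85-3p and 14.3, 3.61 and 4.73 for miR-785. For miR-784-5p they were 13.5, 3.67 and 2.92. The ratios of miR-1821 were closer together, at 6.32, 4.90 and 5.30. The library totals had ratios of 2.36, 1.40 and 1.23 at day 5. The library medians had ratios of 2.85, 1.40 and 1.45, so under the authors' scaling replicate 1 was also the pair whose medians differed most. A common factor on a library and a general difference of its microRNAs cannot be told apart there. Divided by those medians, the ratios were 5.02, 2.42 and 2.21 for miR-85-3p, 5.01, 2.59 and 3.27 for miR-785, 4.75, 2.63 and 2.02 for miR-784-5p, and 2.22, 3.51 and 3.66 for miR-1821. All of these 12 ratios were above 1, but the 4 were chosen on this contrast, so nothing is read from that. At day 0 the ratios relative to the median in replicate 2 were 1.00 for miR-85-3p, 0.802 for miR-784-5p, 0.422 for miR-785 and 1.02 for miR-1821, while in replicates 1 and 3 they ran from 1.63 to 3.43.

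Shares of the library total do not depend on how the libraries were scaled, and they separated the day 5 groups as well. miR-85-3p made up 0.949% ± 0.0278 of the measured signal in mutants and 0.304% ± 0.129 in N2 at day 5, and 1.13% ± 0.191 in mutants and 0.758% ± 0.0498 in N2 at day 0 (n = 3 each). miR-785 made up 0.0442% ± 0.00616 in mutants and 0.0117% ± 0.00396 in N2 at day 5. miR-784-5p made up 0.00996% ± 0.00157 in mutants and 0.00337% ± 0.00173 in N2, and miR-1821 0.00579% ± 0.000258 in mutants and 0.00171% ± 0.000339 in N2, both at day 5. The ratios of mean shares at day 5, between 2.95 for miR-784-5p and 3.77 for miR-785, were smaller than the ratios of normalised counts. Every mutant share was above every N2 share for each of the 4, as it was for 28.0% of the 211 microRNAs.

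Within the mutants at day 5 the shares were far more even than the normalised counts. The coefficient of variation of miR-85-3p was 54.2% in normalised counts and 2.93% in shares, and that of miR-1821 was 49.7% and 4.45%. For miR-785 it was 54.1% and 13.9%, and for miR-784-5p 37.7% and 15.7%. In N2 at day 5 the shares of miR-85-3p and miR-784-5p still varied by 42.4% and 51.2%, with N2 replicate 1 the lowest in each. At day 0 the shares of miR-85-3p and miR-1821 did not overlap between the strains either, at mean ratios of 1.49 and 1.75, whereas those of miR-784-5p and miR-785 did, and 11.8% of all 211 microRNAs had every mutant share above every N2 share.

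**Figure D3:**
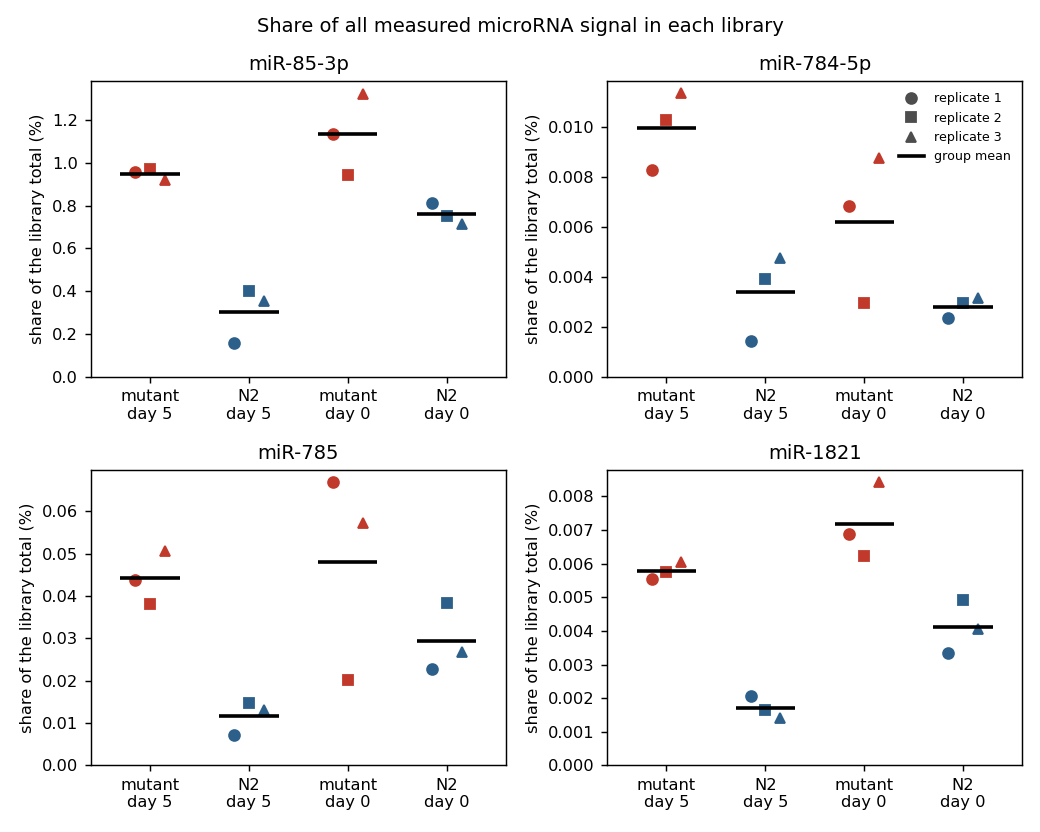
Share of all measured microRNA signal (percent, from 0) taken by each of the 4 microRNAs in each library, with replicates as symbols, group means as black lines, mutants in red and N2 in blue. The mutant libraries of day 5 lie close together, at 0.918 to 0.971% for miR-85-3p and 0.00555 to 0.00606% for miR-1821, and above the N2 libraries of day 5 in each panel.

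Ranks within a library, on the contrast the 4 were chosen on, did not overlap between the strains at day 5 for any of them, and 20.4% of the 211 microRNAs had a higher rank in every mutant library than in every N2 library. miR-85-3p was at rank 24 to 29 of 213 in the mutants and 35 to 41 in N2 at day 5, and at 20 to 24 in the mutants and 30 to 31 in N2 at day 0. miR-785 was at rank 56 to 63 in the mutants and 81 to 94 in N2 at day 5. Around the middle of the table, miR-784-5p was at 91 to 97 in the mutants and 111 to 138 in N2, and miR-1821 at 107 to 110 in the mutants and 128 to 142 in N2. In young adults the ranks of miR-1821, at 107 to 121 in the mutants and 123 to 131 in N2, did not overlap, nor did those of miR-85-3p given above. Those of miR-785, at 55 to 75 in the mutants and 64 to 67 in N2, overlapped, as did those of miR-784-5p, at 105 to 138 in the mutants and 131 to 138 in N2. At day 0, 5.69% of the 211 microRNAs had a higher rank in every mutant library than in every N2 library.

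When the libraries were scaled in other ways the day 5 differences became smaller and stayed positive, while the median of all microRNAs moved close to 0. It was 0.98 under the authors' scaling, 0.32 with equal totals, 0.05 with a trimmed mean of M-values and 0.15 with equal medians. miR-785 had 1.96, 1.70 and 1.80 under those 3 scalings, miR-85-3p 1.75, 1.48 and 1.58, miR-784-5p 1.70, 1.44 and 1.54, and miR-1821 1.75, 1.49 and 1.59. Over these and the other alternatives tried, miR-785 was at place 1 to 5 in the order of day 5 differences, miR-85-3p at 2 to 12, miR-784-5p at 5 to 15 and miR-1821 at 2 to 16. Over those 3 scalings the calls among all microRNAs were 23 higher and 5 lower with equal totals, 15 and 11 with the trimmed mean, and 18 and 11 with equal medians.

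**Figure D4:**
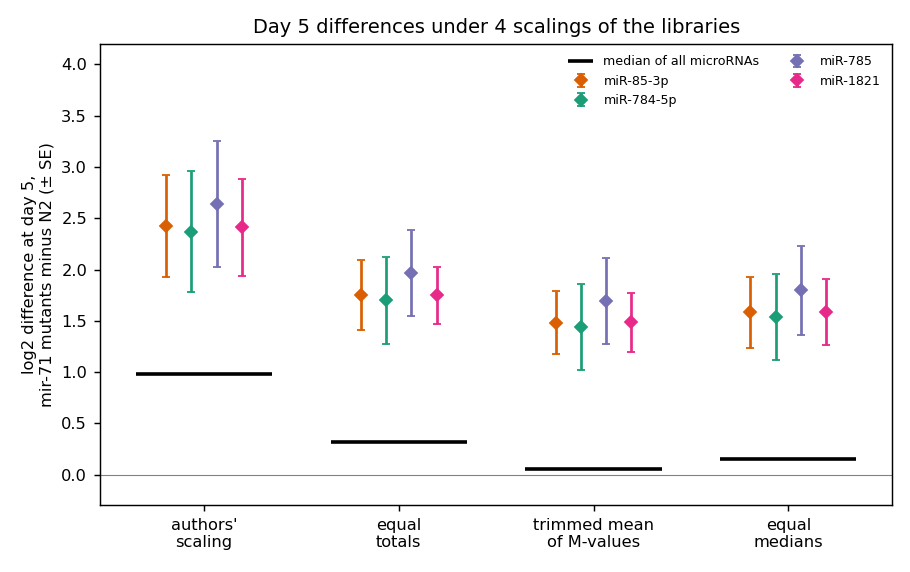
Log2 differences at day 5, mir-71 mutants minus N2, with limma SE, for the 4 microRNAs under the authors' scaling and 3 others, and the median of 211 microRNAs as black lines. The 4, chosen on this contrast, lie between 1.44 and 1.96 under the other scalings, where the median of all lies between 0.05 and 0.32.

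Between the ages, 3 of the 4 were lower at day 5 than at day 0 in N2, and miR-784-5p was not. These changes use the day 5 libraries on which the 4 were chosen and are therefore described only. In mutants the levels of miR-85-3p, miR-785 and miR-1821 overlapped between the ages, with log2 changes of 0.29 ± 0.50, 0.58 ± 0.61 and 0.24 ± 0.47. Of the 211 microRNAs, 18.5% were higher and 8.53% lower in every day 5 library than in any day 0 library of the mutants. In N2 the same 3 were lower in every day 5 library than in any day 0 library, at 0.377, 0.396 and 0.430 times the day 0 mean and log2 changes of −1.43 ± 0.50, −1.35 ± 0.61 and −1.24 ± 0.47. Of all 211 microRNAs, 35.1% were likewise lower in every day 5 library than in any day 0 library of N2. The change of miR-784-5p in mutants was 1.34 ± 0.59, with means of 296 ± 112 normalised counts at day 5 and 139 ± 89.5 at day 0. In N2 its change was 0.10 ± 0.59, with means of 59.9 ± 33.8 at day 5 and 50.3 ± 3.93 at day 0, and the ranges of the ages overlapped in both strains. The median change of all microRNAs was 0.28 in mutants and −0.49 in N2. The signs of the mutant changes of miR-85-3p and miR-1821 turned negative with equal totals and with either of 2 mutant libraries left out, and that of miR-785 with 1 left out.

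In order of mean normalised counts, miR-85-3p, miR-785 and miR-1821 were highest in the day 5 mutants, followed by day 0 mutants, young N2 and day 5 N2. Neighbouring steps of that order overlapped between the 2 mutant groups for all 3, and between mutants and N2 at day 0 for miR-85-3p and miR-785. For miR-784-5p the order was mutants at day 5, mutants at day 0, N2 at day 5 and N2 at day 0, and each neighbouring pair of groups overlapped. In mean shares of the library total, the mutant groups changed places for miR-85-3p, miR-785 and miR-1821. The day 5 and day 0 mutants had 0.949 and 1.13% for miR-85-3p and 0.0442 and 0.0481% for miR-785. For miR-1821 they had 0.00579 and 0.00718%.

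Within the 4, the levels varied together across libraries to different degrees. With the library's median subtracted from each log2 value, Pearson's r over the 12 libraries was 0.891 for miR-85-3p with miR-785, 0.818 for miR-785 with miR-1821 and 0.800 for miR-85-3p with miR-1821. The pairs with miR-784-5p were lower, at 0.747 with miR-785, 0.635 with miR-85-3p and 0.519 with miR-1821. These values are descriptions, since the 12 libraries hold 4 groups on which the microRNAs were chosen, and libraries of a strain, an age or a replicate number share what sets them apart.

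By the same measure, lsy-6 was nearest to miR-85-3p (r = 0.964 and Spearman's rho = 0.965 over 12 libraries). lsy-6 fixes the left-right difference of a pair of taste neurons. At day 5 it rested on 0 to 9 inferred reads per library in N2 and 33 to 50 in mutants, so counting error adds to its spread. miR-793, a microRNA related to let-7, came first for both miR-785 (0.957) and miR-1821 (0.870) and second for miR-85-3p (0.901). It had 1538, 631 and 689 normalised counts in mutants and 157, 154 and 184 in N2 at day 5, without overlap. Every mutant library was above every N2 library in 41.2% of the 211 microRNAs. As miR-793 was named for its likeness to microRNAs chosen on this contrast, nothing is read from that. The third for miR-85-3p was miR-62 (0.899), which is made from a spliced intron. For miR-785 the next were lsy-6 (0.849) and the muscle microRNA miR-1-3p (0.807), and for miR-1821 miR-795-3p (0.862) and miR-792-3p (0.808). miR-784-5p had other companions, miR-66-5p (0.950), miR-259-5p (0.943) and miR-1829c (0.939), so that no microRNA among its nearest 3 was shared with the other members.

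miR-792-3p, from the gene beside mir-1821, was also higher in mutants at day 5. It had 55.5, 17.7 and 33.1 normalised counts in mutants, against 6.13, 6.19 and 6.05 in N2 at day 5, a log2 difference of 2.21 ± 0.52 (limma adjusted p = 0.0131, 0.00133 to 0.0806 over the alternatives). miR-792-3p was named after the data were seen and is among the 3 nearest in pattern to miR-1821, so nothing is read from its p-values. In N2 replicates 1, 2 and 3 at day 5, 1 inferred read was worth 1.23, 0.563 and 0.865 normalised counts. Those N2 values thus rest on few reads. The call was lost without mutant replicate 1, N2 replicate 1 or N2 replicate 2 at day 5. At day 0 it had 44.3, 20.9 and 20.0 in mutants, against 9.92, 11.2 and 6.38 in N2 (1.47 ± 0.52, limma adjusted p = 0.903). The strains did not overlap at either age, as with mutants above N2 in 41.2% of the 211 microRNAs at day 5 and 3.32% at day 0. miR-359, from the gene beside mir-785, did not pass the test at day 5. It had 11023, 1611 and 3402 in mutants, against 8858, 1260.1 and 1904 in N2 at day 5 (0.50 ± 0.70, limma adjusted p = 0.595, with a negative sign under each of the 3 other scalings and without mutant replicate 1 or N2 replicate 2 at day 5). Replicate 1 was the highest in both strains, and the 2 groups overlapped.

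**Figure D5:**
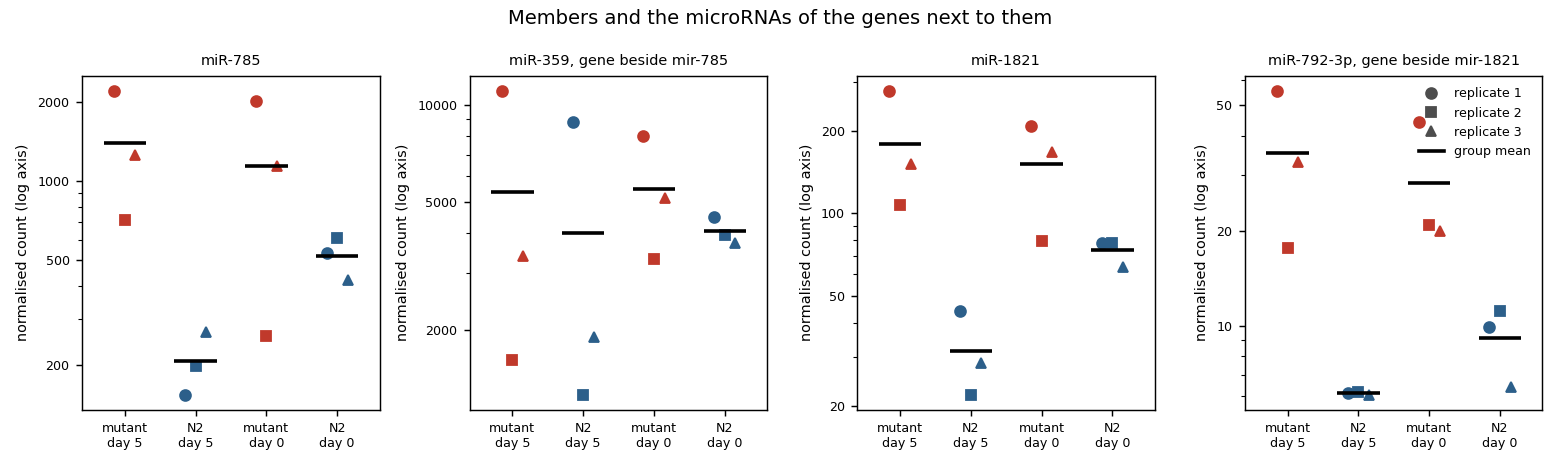
Normalised counts (log axes, with different ranges) of miR-785 and miR-1821 and of the microRNAs whose genes lie 268 and 349 bases from theirs, in each library, with replicates as symbols, group means as black lines, mutants in red and N2 in blue. miR-792-3p has all mutant libraries above all N2 libraries at both ages, while miR-359 overlaps between the strains. Among the 211 microRNAs, 41.2% at day 5 and 3.32% at day 0 have all mutant libraries above all N2 libraries.

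miR-86-5p is known to have the same seed as miR-785, so both can act on the same messages. Its gene, on chromosome III at 11936637 to 11936734 of the minus strand, overlaps an intron of Y56A3A.7. It was more abundant than miR-785 in every library and had 6080.2, 3290.4 and 3242 normalised counts in mutants, against 707, 1261 and 2138 in N2 at day 5. The groups did not overlap, as with mutants above N2 in 41.2% of the 211 microRNAs. The log2 difference was 1.70 ± 0.45 (limma adjusted p = 0.0186, 0.00425 to 0.147 over the alternatives). miR-86-5p was named after its values were seen, so nothing is read from this p-value. The call was lost with each of the 3 other scalings, at 1.02, 0.75 and 0.85, and without mutant replicate 1, N2 replicate 1 or N2 replicate 2 at day 5. At day 0 it had 4806, 2409 and 3411 in mutants, against 3178, 2709.5 and 2686 in N2 (0.26 ± 0.45, limma adjusted p = 0.966, with −0.036 under the trimmed mean of M-values). The other arm of its precursor, miR-86-3p, had 0.57 ± 0.64 at day 5 (limma adjusted p = 0.492), and its ranges overlapped between the strains.

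Markers of the tissues in a whole worm were set beside these results. Among all 211 microRNAs at day 5, limma called 22.7% higher and 0 lower in mutants, and the median log2 difference was 0.98. Of 4 neuronal microRNAs 3 were higher in mutants at day 5, lsy-6 (3.35), miR-124-3p (1.86) and miR-790-5p (1.47), with 1.01 for miR-791-3p (limma adjusted p of 0.00953, 0.0262, 0.0220 and 0.0940). The count was 1 under each of the 3 other scalings and without N2 replicate 1 or 2 at day 5, and 0 without mutant replicate 1 at day 5. Their summed level was 1362 to 3292 normalised counts in mutants and 607 to 722 in N2. Most of that sum was miR-790-5p, with means of 1908 in mutants and 631 in N2. lsy-6 had only 0 to 9 inferred reads per library in N2, and 1 of those values was 0. The intestinal miR-60-3p was called higher (1.50, limma adjusted p = 0.0482), at 2020.0 to 4945 in mutants and 620.0 to 1928 in N2, but not under the 3 other scalings, nor without mutant replicate 1 or 3 or N2 replicate 1 or 2 at day 5, among others. The muscle miR-1-3p (1.42, limma adjusted p = 0.0998) and the glial miR-228-5p (1.13, limma adjusted p = 0.0913) passed with the replicate block and without mutant replicate 2 of either age, at 59109 to 264513 normalised counts in mutants and 38123 to 56508 in N2 for miR-1-3p. Of the 8 mir-35 family members, which mark germline and embryos, limma called 0, with 0 at an unadjusted p under 0.05 and 1 called lower with equal medians. Their median difference was 0.29, against 0.98 for all microRNAs, and it was negative under the 3 other scalings (−0.38, −0.65 and −0.55). Their sum was 108135 to 346010 in mutants and 143403 to 238057 in N2. At day 0 limma called no marker of any list. The part of these tissues in the levels of the 4 microRNAs was not tested.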

How the data were processed

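The measured samples were 12 small RNA libraries of whole worms. According to the submitters' processing notes, STAR 2.4.0h, DESeq2 and the WBcel235 build were used by the authors, and trimming, counting rules and use of strand were not given in the sources used here. Values deposited by the authors were normalised read counts for 213 mature microRNAs (unit: signal, never below 0), and a log2 version of unstated transformation that served as an alternative. In every normalised column, 100% of values lay at whole multiples of a step, within 0.001 of a step plus 2e-06 of the number of steps, and the step was read as the value of 1 read. That reading rests on the values alone, mostly on the scarcer microRNAs, for which the tolerance is narrow, and no count test was run.

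A pseudocount of 1 was added before log2, and limma 3.58.1 in R 4.3.3 was fitted to the 4 groups jointly, with a trend of variance on intensity and no filter. Tests were two-sided, and adjusted p-values (Benjamini-Hochberg over all 213 microRNAs) under 0.05 were called. Numbers called leave out both mir-71 arms and so cover 211 microRNAs. The fit and the scaling code were tested on simulated data.

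The 4 microRNAs and the lists were chosen with earlier results of these data known. The strain contrast at day 5, and the age changes that share its libraries, are described for the 4 without p-values, and only the day 0 contrast is tested. By the rule for names, the text covers the 4, other arms, the 3 microRNAs nearest in pattern to each, and tissue markers. It also covers the neighbours of the 4 in the order of day 5 differences. MicroRNA sequences were not used here, so seed relatives of the 4 could not be searched for. miR-86-5p was named as a seed relative from general knowledge after its values were seen. miR-359 and miR-792-3p, found through the annotation, were also named after the data were seen.

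Same-numbered mutant and N2 libraries deviated alike from their group means, with r of 0.248 to 0.569 across microRNAs in 6 pairs and each library closest to its own number, so the numbers were taken to pair the libraries in the alternative with a replicate block. The pairing comes from the data, since the labels do not say what a number marks. It was checked between the strains within each day only, whereas the block also joins the days. Other alternatives used a pseudocount of 5, a filter at a mean of 20, other scalings (equal totals, an unweighted trimmed mean of M-values, equal medians), the deposited log2 values, the compared groups alone, no trend, or 1 library fewer. Positions come from the Ensembl annotation of WBcel235.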

Additional observations from a re-analysis of the deposited data

Results flagged for a closer look

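In normalised counts, the age changes of miR-785 pointed in opposite directions in the strains when libraries were paired across days by replicate number. Whether a replicate number links the ages was not checked. The ratios of day 5 to day 0 were 1.09, 2.78 and 1.11 in mutants and 0.290, 0.325 and 0.6345 in N2. In shares of the library total, miR-785 fell with age in mutant replicates 1 and 3, from 0.0668 to 0.0439% and from 0.0573 to 0.0505%. It rose in mutant replicate 2, from 0.0202 to 0.0382%, and fell in each N2 replicate. The log2 age changes differed by 1.93 between mutants and N2, at 0.58 in mutants and −1.35 in N2. The median change of all microRNAs was 0.28 in mutants and −0.49 in N2. The difference of 1.93 was not tested, because miR-785 was chosen on the day 5 libraries that enter both changes.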

How the results depend on the processing

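In all, 29 results were recomputed under up to 21 alternatives. At day 0 the number called stayed at 0, and the 4 microRNAs kept a positive difference that missed the threshold, under each alternative run, the replicate block included. With 1 library left out their day 0 values ran from 0.38 to 1.14 for miR-85-3p, 0.68 to 1.89 for miR-784-5p, 0.07 to 1.56 for miR-785 and 0.65 to 1.34 for miR-1821. At day 5 the number called, 48, was 28 with equal totals, 26 with the trimmed mean of M-values, 29 with equal medians, 96 with the replicate block, and 1 to 75 with 1 library left out. With equal totals, the trimmed mean, equal medians and the deposited log2 values, the day 5 differences were 1.75, 1.48, 1.58 and 1.38 for miR-85-3p and 1.75, 1.49, 1.59 and 1.34 for miR-1821. With the last 3 of these miR-784-5p had 1.44, 1.54 and 1.41, and miR-785 had 1.70 with the trimmed mean and 1.51 with the deposited log2 values. With 1 library left out they ran from 2.01 to 2.72 for miR-85-3p, 2.04 to 2.72 for miR-1821, 1.97 to 2.79 for miR-784-5p and 2.23 to 3.04 for miR-785.

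Some signs turned. The age change in mutants was −0.24 for miR-85-3p and −0.30 for miR-1821 with equal totals. With 1 library left out it ran from −0.15 to 0.61 for miR-85-3p and from −0.17 to 0.55 for miR-1821, and was also negative without mutant replicate 1 at day 5 (−0.12 and −0.14), while for miR-785 it ran from −0.27 to 1.21. The lowest values of these 3 were those without mutant replicate 2 at day 0. In N2 the age change of miR-784-5p ran from −0.32, without replicate 3 at day 5, to 0.50. miR-86-5p at day 0 had −0.036 with the trimmed mean. miR-359 at day 5 had −0.17 with equal totals, −0.44 with the trimmed mean, −0.34 with equal medians and from −0.24 to 1.34 with 1 library left out, −0.066 without N2 replicate 2 included. The causes were not tested. Groups of 3 libraries and, for miR-784-5p and miR-1821, few reads limit the precision.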
